A study of Homo sapiens with 6 samples.

Results

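HLA class I antigen presentation was followed through 9 genes of the pathway, HLA-B, HLA-C, B2M, TAP1, TAP2, TAPBP, PSMB8, PSMB9 and NLRC5, taken by symbol from the 58735 genes of the expression table. All 9 were in the table and passed the minimum of a mean of 1 FPKM, which left 10674 genes to test. FPKM are fragments per kilobase of gene, scaled to a total for each library. The RNA of 6 samples was sequenced, all of TPC1, a line established from a papillary thyroid carcinoma. In 3 samples the cells carried si-circ_0000839, an siRNA that silences the circular RNA hsa_circ_0000839, and in 3 they carried the negative-control siRNA (NC), each for 60 h after transfection. All samples are of this same line, no cytokine is named in the labels, and they do not say whether the 3 samples of each group were grown and transfected apart, so the p-values speak of the spread among these 6 samples, which may be technical. The gene table does not measure circular RNAs apart from their host genes, so the silencing was not checked here.

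Class I molecules show peptides from the inside of a cell to CD8+ T cells. Proteasomes cut proteins into peptides, and cells exposed to interferon exchange the standard catalytic subunits for immunoproteasome subunits such as PSMB8 and PSMB9. The TAP1 and TAP2 proteins pump the peptides into the endoplasmic reticulum, where TAPBP (tapasin) helps to load them onto a polymorphic heavy chain paired with the light chain beta-2-microglobulin. NLRC5 is the transactivator that binds with RFX factors to class I promoters, and these genes are classical targets of interferon signalling.

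The libraries held 18399558 to 19334633 reads recovered from the FPKM steps, 20533 to 21088 genes above 0 and 1.33% to 1.60% of reads on mitochondrial genes. Libraries differed in a trend on GC content. In tested genes with at least 58.5% GC in their longest transcript, the median deviation from each gene's own mean was 0.11 (log2) in si-circ_0000839 replicate 1 and 0.08 in NC replicate 2, against -0.07 to -0.01 in the other libraries. Those high values fell in 1 library of each group. Of the results computed again without both libraries, those that moved by over 1.5 times are given below.

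None of the 9 genes passed an adjusted p under 0.05 in the limma fit over all tested genes, where 0.131% of genes were called higher and 0.253% lower (0.384% in either direction). At an unadjusted p under 0.05, 5 of the 9 genes were higher in si-circ_0000839 cells (HLA-B, HLA-C, TAP1, TAP2 and TAPBP), against 6.31% of all tested genes. The log2 change was above 0 for 8 of the 9 genes, against 51.8% of all tested genes, with a median of 0.16 for the 9 genes and 0.01 over all tested genes. In 5 of the 9 genes (HLA-B, B2M, TAP1, TAP2 and TAPBP) all 3 si-circ_0000839 libraries lay above all 3 NC libraries, which was so for 10.6% of all tested genes, and in 0 of the 9 all lay below, which was so for 7.55%. These counts are in FPKM, and by share of the recovered reads the groups of B2M overlapped. With voom on the recovered reads, 1 of the 9 genes, HLA-B, was called higher, against 0.468% of all tested genes (1.11% in either direction). These genes were chosen with earlier results of these data known, so the counts are a description. In whole-culture RNA, a change in how many cells carry a transcript and a change in its level per cell cannot be told apart.

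**Figure D1:**
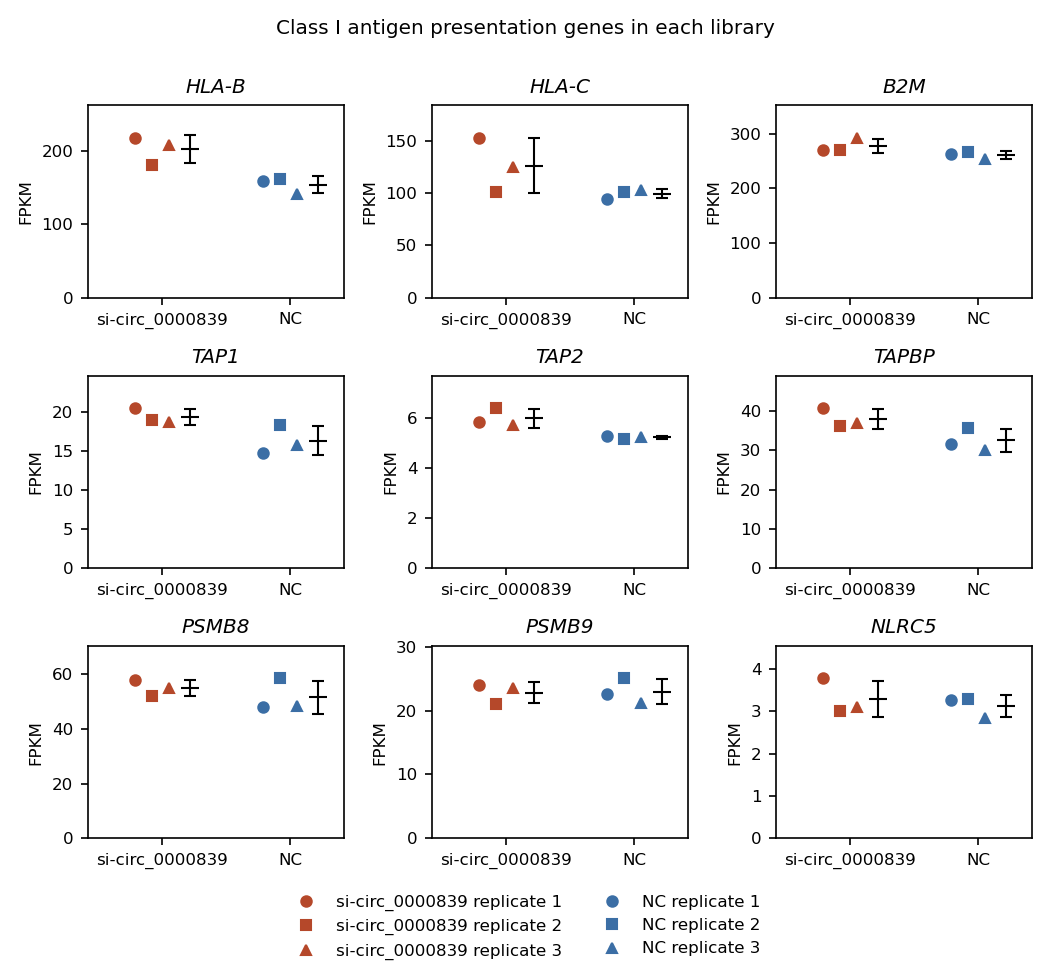
FPKM of the 9 class I genes, a panel each, with 1 point per library, si-circ_0000839 left of NC, and bars for the mean ± SD (n = 3 each). HLA-B, B2M, TAP1, TAP2 and TAPBP show all 3 si-circ_0000839 points above the NC points, and PSMB9 averages 22.8 FPKM in si-circ_0000839 cells and 22.9 FPKM in NC cells.

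HLA-B and HLA-C encode polymorphic heavy chains, which hold the peptide. HLA-B (ENSG00000234745, chr6:31269491-31357188, minus strand, GRCh38) stood at 218, 181 and 208 FPKM in the si-circ_0000839 libraries, against 159, 162 and 141 FPKM in the NC libraries. The lowest si-circ_0000839 library lay above the highest NC library. The means were 203 ± 19.0 FPKM in si-circ_0000839 cells and 154 ± 11.5 FPKM in NC cells (SD, n = 3 each), 1.32-fold apart, with a log2 change of 0.39 (SE 0.09, 95% interval 0.19 to 0.59) and an adjusted p of 0.107 in limma. HLA-B had the smallest p of the 9 genes, at rank 114 of 10674. Of the 9 genes it alone was called under some settings and not under others: its adjusted p was 0.0173 to 0.421 over 18 alternatives and fell under 0.05 in 6 of them, as listed under the dependence on processing, while the log2 change kept to 0.33 to 0.47.

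HLA-C (ENSG00000204525, chr6:31268749-31272130, minus strand) stood at 153, 101 and 124 FPKM in the si-circ_0000839 libraries, against 94.3, 101 and 103 FPKM in the NC libraries. The groups overlapped, because si-circ_0000839 replicate 2 lay within the NC values. The means were 126 ± 25.9 FPKM in si-circ_0000839 cells and 99.4 ± 4.59 FPKM in NC cells (SD, n = 3 each), with a log2 change of 0.32 (SE 0.12, 95% interval 0.05 to 0.60) and an adjusted p of 0.323 in limma. Without si-circ_0000839 replicate 1 the log2 change was 0.17 with an adjusted p of 0.586. The longest transcript of HLA-C had 62.7% GC and that of HLA-B 59.0%, both in that GC-rich class in which si-circ_0000839 replicate 1 was high as a whole. With the GC and length trend removed, the log2 changes were 0.37 for HLA-B and 0.32 for HLA-C.

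HLA-B and HLA-C are close paralogs whose reads can be assigned to either, and the annotation gives them 35 shared exon bases on the same strand, 1.15% of the HLA-B and 1.40% of the HLA-C exon length. HLA-B also shares 542 exon bases with the pseudogene AL671883.2 on the other strand, which was listed at 0. How shared reads were counted, and whether strand was used, is not given in the sources used here. The ratio of HLA-B to HLA-C was 1.43, 1.79 and 1.67 in the si-circ_0000839 libraries, against 1.69, 1.61 and 1.36 in the NC libraries, so the groups overlapped.

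B2M (ENSG00000166710, chr15:44711487-44718877, plus strand), the light chain that every class I molecule needs, was the most abundant of the 9 transcripts. It stood at 271, 271 and 293 FPKM in the si-circ_0000839 libraries, against 263, 267 and 253 FPKM in the NC libraries. In FPKM all si-circ_0000839 libraries lay above the NC libraries, by a small margin. By share of the recovered reads the groups overlapped. B2M had 30222 of 18888554 reads in si-circ_0000839 replicate 1 and 31010 of 19032870 in NC replicate 1, a larger share. The log2 change was 0.09 (SE 0.07, 95% interval -0.06 to 0.25), with an adjusted p of 0.642 in limma, and it was 0.05 without si-circ_0000839 replicate 3. The summed FPKM of HLA-B and HLA-C over that of B2M, a ratio chosen after the values were seen and not tested, was 1.37, 1.04 and 1.14 in the si-circ_0000839 libraries, against 0.964, 0.985 and 0.963 in the NC libraries. Its mean was 1.18 ± 0.167 in si-circ_0000839 cells and 0.971 ± 0.0125 in NC cells (SD, n = 3 each), and all si-circ_0000839 libraries lay above all NC libraries. Without si-circ_0000839 replicate 1 its mean in si-circ_0000839 cells was 1.09, so the difference from NC cells was 0.119, against 0.211 with all libraries. The longest transcript of B2M had 40.6% GC, in the AT-rich class of tested genes (up to 41.7% GC), and the part of the GC trend in this ratio was not tested.

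TAP1 and TAP2 encode the subunits of the peptide transporter. TAP1 (ENSG00000168394, chr6:32845209-32853978, minus strand) stood at 20.6, 18.9 and 18.7 FPKM in the si-circ_0000839 libraries, against 14.8, 18.4 and 15.8 FPKM in the NC libraries. NC replicate 2 came close to the si-circ_0000839 values, and the other NC libraries lay well under them. The means were 19.4 ± 1.0 FPKM in si-circ_0000839 cells and 16.3 ± 1.84 FPKM in NC cells (SD, n = 3 each), with a log2 change of 0.24 (SE 0.09, 95% interval 0.05 to 0.43) and an adjusted p of 0.288 in limma. TAP2 (ENSG00000204267, chr6:32821833-32838780, minus strand) stood at 5.85, 6.43 and 5.73 FPKM in the si-circ_0000839 libraries, against 5.28, 5.18 and 5.27 FPKM in the NC libraries. The groups did not overlap, and the spread in NC cells was small. Its log2 change was 0.16 (SE 0.07, 95% interval 0.00 to 0.33), with an adjusted p of 0.389 in limma. The TAP1 to TAP2 ratio was 3.24 ± 0.286 in si-circ_0000839 cells and 3.12 ± 0.385 in NC cells (SD, n = 3 each; log2 difference 0.06, exact permutation test, two-sided, p = 0.8).

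TAPBP, tapasin, bridges the transporter to the empty class I molecule. TAPBP (ENSG00000231925, chr6:33299694-33314387, minus strand) stood at 40.9, 36.2 and 36.9 FPKM in the si-circ_0000839 libraries, against 31.7, 35.7 and 30.2 FPKM in the NC libraries. As with TAP1, NC replicate 2 was the NC library nearest to the si-circ_0000839 values. The means were 38.0 ± 2.52 FPKM in si-circ_0000839 cells and 32.5 ± 2.84 FPKM in NC cells (SD, n = 3 each), with a log2 change of 0.22 (SE 0.08, 95% interval 0.04 to 0.40) and an adjusted p of 0.310 in limma.

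PSMB8 and PSMB9 are catalytic subunits of the immunoproteasome, which take the places of PSMB5 and PSMB6. PSMB8 (ENSG00000204264, chr6:32840717-32844703, minus strand) stood at 57.9, 52.0 and 55.0 FPKM in the si-circ_0000839 libraries, against 48.0, 58.6 and 48.3 FPKM in the NC libraries. The groups overlapped through NC replicate 2, which was the highest of the 6 libraries. The log2 change was 0.09 (SE 0.09, 95% interval -0.10 to 0.29), with an adjusted p of 0.710 in limma, and the log2 change was 0.19 without NC replicate 2, 0.06 without si-circ_0000839 replicate 1, 0.05 without NC replicate 1, 0.05 without NC replicate 3 and 0.15 with the pair of libraries that stood apart left out. PSMB9 (ENSG00000240065, chr6:32844136-32859585, plus strand) stood at 24.0, 21.0 and 23.5 FPKM in the si-circ_0000839 libraries, against 22.5, 25.1 and 21.2 FPKM in the NC libraries. The groups overlapped over most of their range. The log2 change was -0.01 (SE 0.08, 95% interval -0.19 to 0.18), with an adjusted p of 0.982 in limma.

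Within each library the immunoproteasome subunits were set against the subunits they replace. The PSMB8 to PSMB5 ratio was 0.387, 0.355 and 0.379 in the si-circ_0000839 libraries, against 0.334, 0.335 and 0.353 in the NC libraries. The si-circ_0000839 values all lay above the NC values, with a log2 difference of 0.13 and p = 0.1 in the exact permutation test, two-sided, the smallest p that 3 against 3 allows. The PSMB9 to PSMB6 ratio was 0.181 ± 0.0122 in si-circ_0000839 cells and 0.178 ± 0.00682 in NC cells (SD, n = 3 each, exact permutation p = 0.8). The PSMB10 to PSMB7 ratio was 0.131 ± 0.0106 in si-circ_0000839 cells and 0.116 ± 0.00954 in NC cells (SD, n = 3 each, exact permutation p = 0.2). TAP1 and PSMB9, whose starts lie 488 bases apart in opposite directions, had a ratio of 0.858, 0.903 and 0.797 in the si-circ_0000839 libraries, against 0.656, 0.732 and 0.747 in the NC libraries. This ratio also had no overlap, with a log2 difference of 0.26 and exact permutation p = 0.1. Adjusted over the 5 ratios by Benjamini-Hochberg, p was 0.25 for PSMB8 to PSMB5 and TAP1 to PSMB9, 0.333 for PSMB10 to PSMB7 and 0.8 for the other two.

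**Figure D2:**
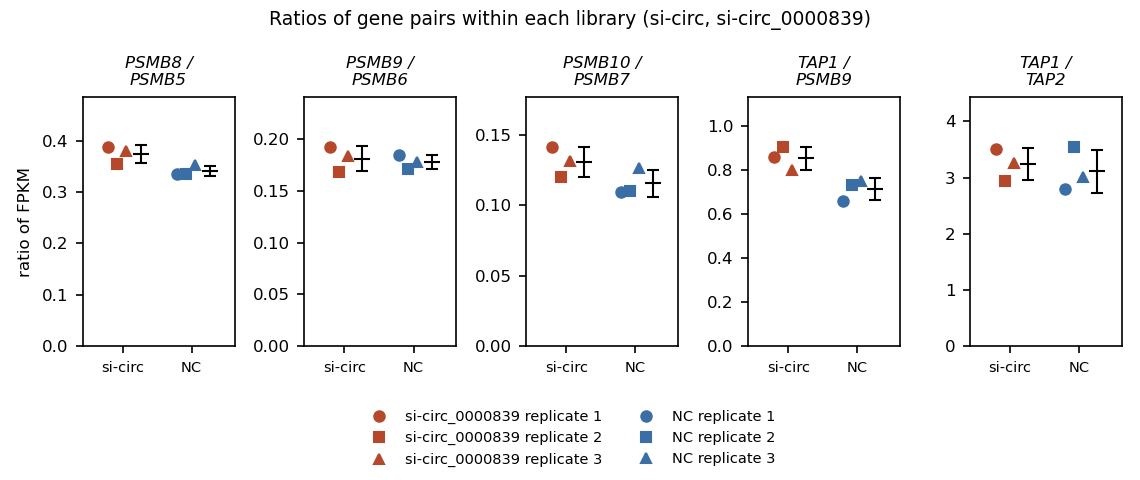
Ratio of the FPKM of a pair of genes within each library, for the 5 pairs tested, with 1 point per library, si-circ_0000839 left of NC, and bars for the mean ± SD (n = 3 each). The TAP1 to PSMB9 ratio spans 0.797 to 0.903 in si-circ_0000839 libraries and 0.656 to 0.747 in NC libraries.

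NLRC5 (ENSG00000140853, chr16:56989485-57083531, plus strand), the transactivator, was the least abundant of the 9 transcripts. It stood at 3.78, 3.01 and 3.09 FPKM in the si-circ_0000839 libraries, against 3.26, 3.28 and 2.83 FPKM in the NC libraries. Only si-circ_0000839 replicate 1 lay above the NC values, and the groups overlapped. The log2 change was 0.06 (SE 0.09, 95% interval -0.15 to 0.26), with an adjusted p of 0.852 in limma, and with 1 library left out it ran from -0.02 (without si-circ_0000839 replicate 1) to 0.10 (without si-circ_0000839 replicate 2).

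**Figure D3:**
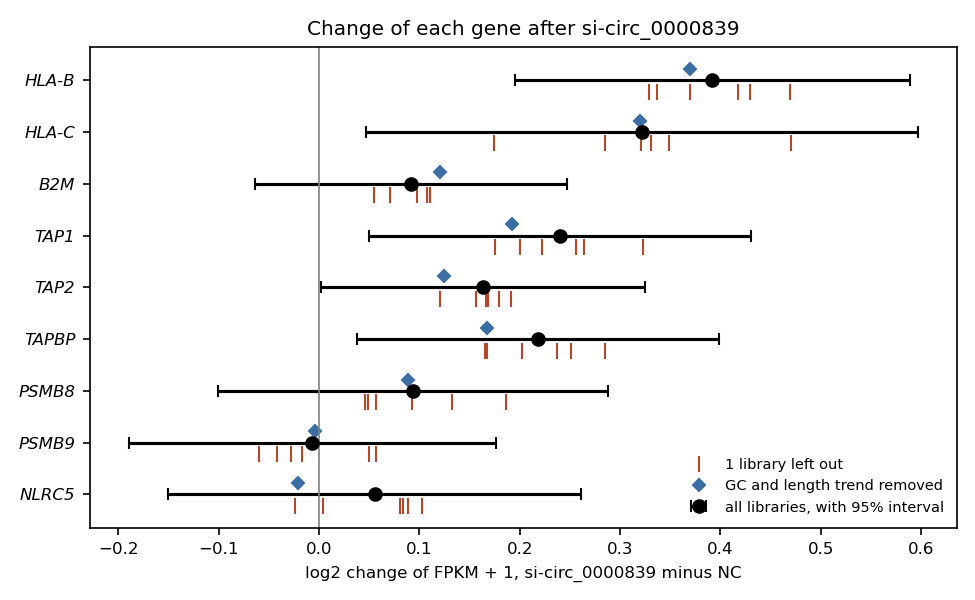
Log2 change of the 9 class I genes, si-circ_0000839 minus NC, on the log2(FPKM + 1) scale, with 95% intervals from limma (n = 3 libraries each); ticks are the values with 1 library left out and diamonds those with the GC and length trend removed. HLA-B lies at 0.39, with an interval of 0.19 to 0.59, and PSMB9 lies at -0.01.

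Within the groups the 9 genes did not follow the same order over the libraries. In si-circ_0000839 cells, replicate 1 was the highest library for HLA-B, HLA-C, TAP1, TAPBP, PSMB8, PSMB9 and NLRC5, and it was not for B2M and TAP2. HLA-C deviated by 0.46, -0.14 and 0.16 (log2) from its mean over the 6 libraries in the si-circ_0000839 libraries, against -0.23, -0.14 and -0.11 in the NC libraries. In NC cells, replicate 2 was the highest library for all but HLA-C and TAP2, with deviations of 0.14 at PSMB8 and 0.13 at PSMB9. si-circ_0000839 replicate 1 and NC replicate 2 are the libraries in which GC-rich genes were high; their part in the pattern was not tested beyond the fits that leave them out. Without both, the log2 change was 0.37 for HLA-B, 0.28 for TAP1, 0.23 for TAPBP and 0.18 for HLA-C.

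**Figure D4:**
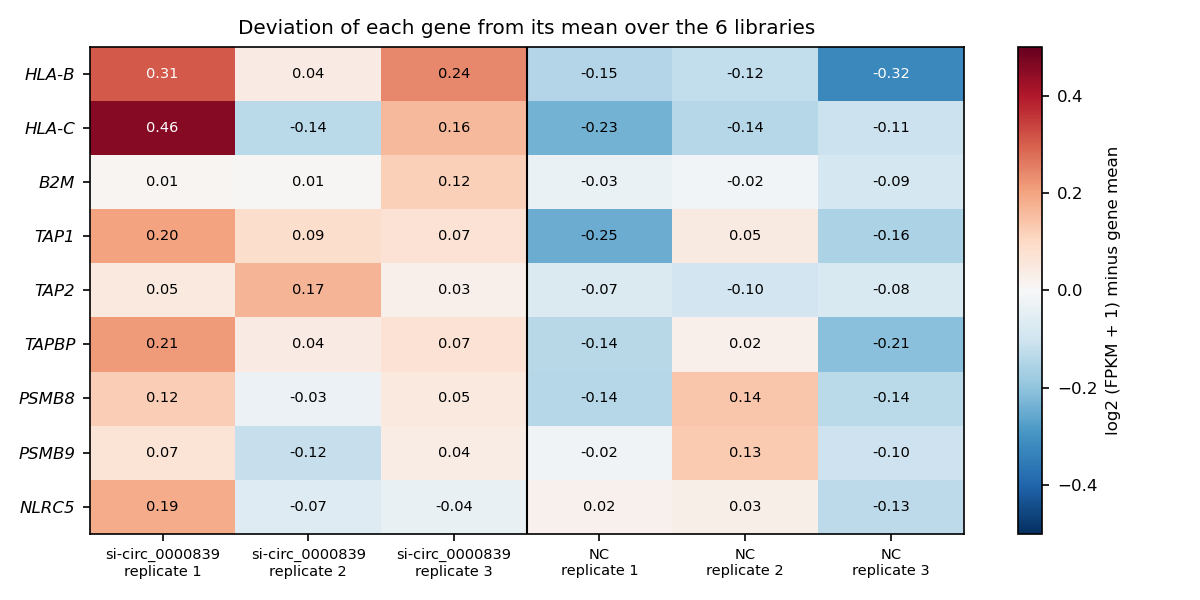
Deviation of log2(FPKM + 1) from each gene's mean over the 6 libraries, for the 9 class I genes (down the page) in each library (across, si-circ_0000839 left of NC). HLA-C shows the widest range, with 0.46 in si-circ_0000839 replicate 1 and -0.23 in NC replicate 1.

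The order of levels was B2M, HLA-B, HLA-C, PSMB8, TAPBP, PSMB9, TAP1, TAP2 and NLRC5, the same in all 6 libraries. By the NC mean, B2M ranked 162 of 10674 tested genes, HLA-B 298, HLA-C 485, PSMB8 963, TAPBP 1534, PSMB9 2141, TAP1 2827, TAP2 5930 and NLRC5 7517. FPKM was scaled to the union of all annotated exons, which is longer than the main transcript, from 1.62 times for TAP1 to 3.93 times for PSMB9. Scaled to the length of the principal transcript, a choice made after the data were seen, B2M stood at 992 FPKM in si-circ_0000839 cells and 930.5 FPKM in NC cells, and HLA-B at 399.5 FPKM in si-circ_0000839 cells and 304 FPKM in NC cells. On that scale PSMB9 stood at 89.6 in si-circ_0000839 cells and 90.1 in NC cells and TAPBP at 102 in si-circ_0000839 cells and 87.1 in NC cells, so their order differed between the groups.

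Several of the genes share exon bases with their neighbours. PSMB8 shared 618 exon bases (20.6%) with PSMB8-AS1 on the other strand, TAP1 shared 456 (9.49%) with it, and PSMB9 shared 174 with it on the same strand and 139 with PSMB8 on the other. PSMB8-AS1 averaged 0.516 FPKM over the 6 libraries. TAP2 shared 2064 exon bases, 32.3% of its exon length, with AL669918.1 on the same strand, which was listed at 0, so how the authors' counting treated reads of that stretch bears on the TAP2 level. B2M, TAPBP and NLRC5 shared no exon base with another gene.

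The promoter sequences of the genes show which of them carry the letters of an interferon-stimulated response element, the site bound by IRF factors. RefSeq gave promoters for 8 of the 9 genes (all but NLRC5) in GRCh38.p14, and the 250 bases before the annotated start were searched on both strands. The core GAAA, NN and GAAA in a row was present in B2M, TAP1, TAP2 and TAPBP, against 3.02% of 35116 promoters, and the shorter core GAANNGAAA in HLA-B, HLA-C and TAP2, against 6.56%. The windows of HLA-B (chr6:31357180-31357429), HLA-C (chr6:31272093-31272342), TAP1 (chr6:32853705-32853954), TAP2 (chr6:32838740-32838989) and TAPBP (chr6:33314079-33314328) are on the minus strand, and those of B2M (chr15:44711267-44711516) and PSMB9 (chr6:32853942-32854191) on the plus strand. They are printed 5′ to 3′ with the cores in capitals. PSMB9 is shown as the divergent neighbour of TAP1 and has no such core in its window. The TAP1 cores lie between the starts of TAP1 and PSMB9, farther from the PSMB9 start than the 250 bases searched.
HLA-B: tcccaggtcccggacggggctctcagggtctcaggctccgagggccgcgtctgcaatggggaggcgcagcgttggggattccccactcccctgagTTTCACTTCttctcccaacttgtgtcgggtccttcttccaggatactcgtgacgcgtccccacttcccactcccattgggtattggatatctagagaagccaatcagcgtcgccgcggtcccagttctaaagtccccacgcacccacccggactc
HLA-C: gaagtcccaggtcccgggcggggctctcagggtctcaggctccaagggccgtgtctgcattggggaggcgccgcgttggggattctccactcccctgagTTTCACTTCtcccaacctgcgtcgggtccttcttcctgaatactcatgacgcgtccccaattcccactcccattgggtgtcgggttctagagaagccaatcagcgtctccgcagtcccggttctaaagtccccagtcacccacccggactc
B2M: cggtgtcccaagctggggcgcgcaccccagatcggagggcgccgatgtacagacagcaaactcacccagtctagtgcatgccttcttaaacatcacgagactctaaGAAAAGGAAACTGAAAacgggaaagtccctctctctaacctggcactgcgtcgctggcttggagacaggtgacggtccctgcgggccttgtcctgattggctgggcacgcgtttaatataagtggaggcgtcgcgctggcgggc
TAP1: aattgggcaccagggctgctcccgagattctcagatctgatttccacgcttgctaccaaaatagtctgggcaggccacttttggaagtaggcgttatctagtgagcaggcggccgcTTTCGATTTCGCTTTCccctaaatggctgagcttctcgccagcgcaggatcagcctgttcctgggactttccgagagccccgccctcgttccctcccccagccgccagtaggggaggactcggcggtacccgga
TAP2: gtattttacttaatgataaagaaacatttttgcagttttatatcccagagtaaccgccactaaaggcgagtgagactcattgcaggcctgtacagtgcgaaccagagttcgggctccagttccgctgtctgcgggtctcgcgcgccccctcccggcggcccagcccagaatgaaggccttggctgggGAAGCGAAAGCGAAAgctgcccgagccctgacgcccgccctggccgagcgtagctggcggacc
TAPBP: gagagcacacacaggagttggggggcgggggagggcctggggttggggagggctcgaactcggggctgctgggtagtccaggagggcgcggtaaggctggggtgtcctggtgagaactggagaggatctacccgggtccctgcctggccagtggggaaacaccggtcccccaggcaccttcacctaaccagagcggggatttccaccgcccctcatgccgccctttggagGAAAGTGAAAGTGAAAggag
PSMB9: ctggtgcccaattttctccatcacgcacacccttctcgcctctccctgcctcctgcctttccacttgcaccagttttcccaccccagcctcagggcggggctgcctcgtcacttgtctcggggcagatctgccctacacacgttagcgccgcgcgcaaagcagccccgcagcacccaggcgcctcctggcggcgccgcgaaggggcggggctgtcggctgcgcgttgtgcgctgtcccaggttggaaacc

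In HLA-B the core began 155 bases before the start and in HLA-C 151, in both on the strand opposite to the gene. In B2M cores overlapped at 144 and 138 bases before the start, in TAP1 at 134 and 128 on the opposite strand, and in TAPBP at 20 and 14. TAP2 had both cores, overlapping, at 58 and 63 bases. Neither PSMB8 nor PSMB9 had either core in these windows, against 9.08% of all promoters with at least 1 of them. Of the 6 genes with a core, HLA-B, B2M, TAP1, TAP2 and TAPBP had all si-circ_0000839 libraries above all NC libraries, as did 10.6% of all tested genes. For B2M the log2 change was only 0.09, and by share of the recovered reads its groups overlapped. The groups of HLA-C overlapped, as did those of PSMB8 and PSMB9, which had no core in their windows. These genes were chosen with earlier results of these data known, and whether a core goes with a change was not tested. A site of the kappaB consensus was found in HLA-B, HLA-C, B2M, TAP1 and TAPBP, against 9.96% of promoters. The TGACG letters of an X2 box were found in HLA-B, HLA-C, B2M, TAP2, PSMB8 and PSMB9 (21.2% of promoters), and the ATTGG letters of a Y box in HLA-B, HLA-C, B2M, TAP1 and PSMB9 (32.0%). The gamma-activated site TTCNNNGAA was found at a second start of TAP1 and of PSMB8 (6.57% of promoters). These matches are a description of letters, and binding was not measured.

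Of 10 tested genes of peptide loading and trimming in the endoplasmic reticulum, 0 passed in either direction, 1 was higher and 0 lower at an unadjusted p under 0.05, voom called 1, and the median log2 change was 0.08. Beside this and the later list counts, 6.31% of all tested genes were higher and 6.31% lower at that threshold, and voom called 1.11%. ERAP1, the aminopeptidase that trims peptides to class I length, stood at 12.1, 12.0 and 11.5 FPKM in the si-circ_0000839 libraries, against 9.41, 9.19 and 9.67 FPKM in the NC libraries. The groups did not overlap, with a log2 change of 0.30 (SE 0.07) and an adjusted p of 0.103 in limma, and 2 of 18 alternatives called it. TAPBPL, a tapasin relative, averaged 7.33 FPKM in si-circ_0000839 cells and 6.60 FPKM in NC cells (adjusted p 0.518 in limma).

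Of 6 tested class I and class I-like chains other than HLA-B and HLA-C, 0 passed, 1 was higher and 0 lower at an unadjusted p under 0.05, voom called 0, and the median was 0.12. MICA, a stress ligand of the NKG2D receptor, averaged 15.5 ± 1.71 FPKM in si-circ_0000839 cells and 13.2 ± 0.597 FPKM in NC cells (SD, n = 3 each; log2 change 0.21, adjusted p 0.343 in limma). HLA-F, a non-classical chain, averaged 10.0 ± 1.11 FPKM in si-circ_0000839 cells and 8.82 ± 0.804 FPKM in NC cells (SD, n = 3 each, adjusted p 0.501 in limma). HLA-E, the non-classical chain read by NKG2A, averaged 171 ± 16.0 FPKM in si-circ_0000839 cells and 184 ± 8.51 FPKM in NC cells (SD, n = 3 each), with a log2 change of -0.11, opposite in sign to HLA-B.

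Of 5 tested other immunoproteasome and activator genes, 0 passed and 0 reached an unadjusted p under 0.05, voom called 0, and the median was 0.09. POMP, the assembly chaperone, averaged 78.7 ± 7.01 FPKM in si-circ_0000839 cells and 87.9 ± 1.89 FPKM in NC cells (SD, n = 3 each; log2 change -0.16, adjusted p 0.432 in limma), and PSMB10 averaged 22.5 ± 2.12 FPKM in si-circ_0000839 cells and 20.4 ± 1.40 FPKM in NC cells (adjusted p 0.558). The 3 constitutive catalytic subunits had 0 calls in limma and in voom, 0 at an unadjusted p under 0.05, and a median of -0.04. PSMB7 averaged 172 FPKM in si-circ_0000839 cells and 177 FPKM in NC cells (adjusted p 0.880), and PSMB5 147 FPKM in si-circ_0000839 cells and 152 FPKM in NC cells (adjusted p 0.907). Of 6 tested cytosolic peptidases 0 passed, 1 was higher and 0 lower at an unadjusted p under 0.05, voom called 0, and the median was 0.01. BLMH averaged 9.49 ± 0.377 FPKM in si-circ_0000839 cells and 8.22 ± 0.237 FPKM in NC cells (SD, n = 3 each; adjusted p 0.309 in limma), and NPEPPS 5.74 FPKM in si-circ_0000839 cells and 5.31 FPKM in NC cells (adjusted p 0.639).

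**Figure D5:**
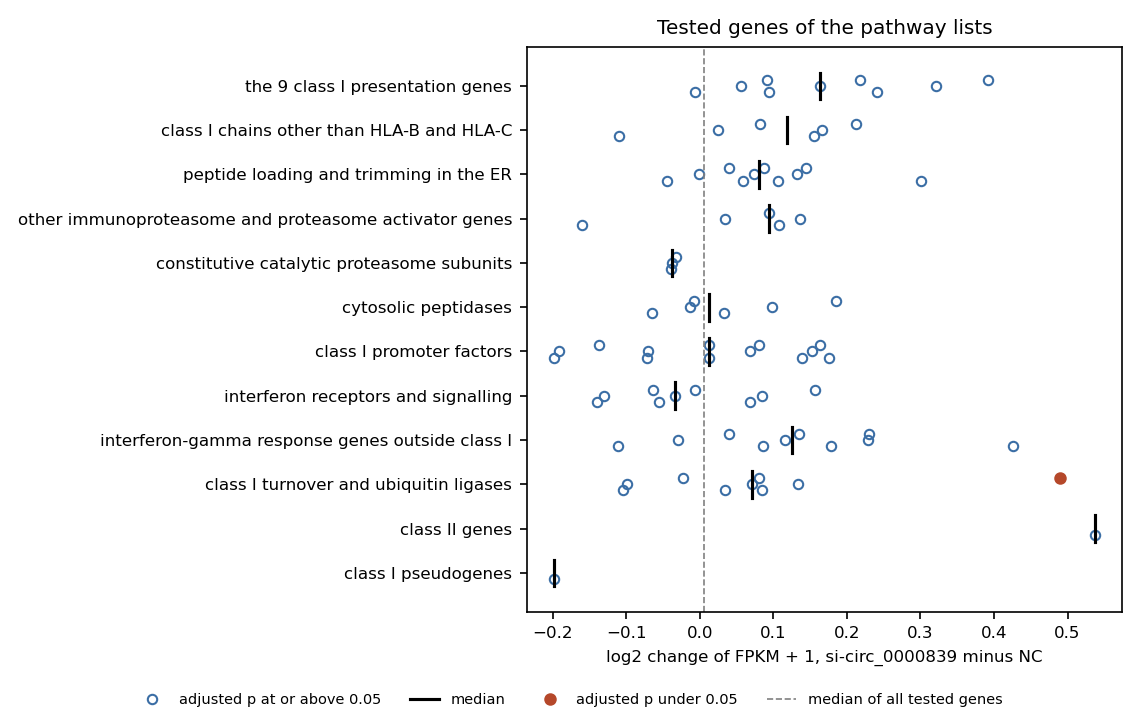
Log2 change (si-circ_0000839 minus NC) of the tested genes of each gene list, with 1 point per gene filled where the adjusted p is under 0.05, a line at the list's median and a dashed line at the median of all tested genes. The 9 class I genes have a median of 0.16 and the constitutive proteasome subunits one of -0.04.

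Of 13 tested transcription factors of class I promoters, 0 passed in either direction, 1 was higher and 2 were lower at an unadjusted p under 0.05, voom called 0, and the median was 0.01. IRF1, an interferon-induced activator of class I promoters, stood at 8.23, 7.93 and 8.12 FPKM in the si-circ_0000839 libraries, against 7.37, 7.05 and 6.75 FPKM in the NC libraries. Its groups did not overlap, with a log2 change of 0.18 and an adjusted p of 0.332 in limma. RFX5, a subunit of the factor to which NLRC5 binds, averaged 10.3 ± 0.373 FPKM in si-circ_0000839 cells and 11.9 ± 0.722 FPKM in NC cells (SD, n = 3 each), with a log2 change of -0.19, an adjusted p of 0.310 and all si-circ_0000839 libraries below all NC libraries. Of 9 tested interferon receptor and signalling genes 0 passed, 0 reached an unadjusted p under 0.05, voom called 0, and the median was -0.03. SOCS3, a feedback inhibitor of cytokine signalling, averaged 22.4 ± 1.05 FPKM in si-circ_0000839 cells and 20.1 ± 1.67 FPKM in NC cells (adjusted p 0.444 in limma), and IFNGR1, a receptor chain for interferon-gamma, 9.49 ± 1.07 FPKM in si-circ_0000839 cells and 10.5 ± 0.831 FPKM in NC cells (adjusted p 0.570).

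Of 10 tested interferon-gamma response genes outside class I, 0 passed, voom called 0, and the median was 0.12. At an unadjusted p under 0.05 in limma, 3 were higher and 0 lower, against 6.31% of all tested genes in each direction. The log2 change was above 0 for 8, against 51.8% of all tested genes, and below 0 for 2, GBP2 (-0.11) and CD274 (-0.03). Of the untested genes of this list, CXCL9 and XAF1 were at 0 in all libraries. CXCL10, CXCL11 and IDO1 reached at most 0.370 FPKM in any library. BST2 (tetherin), an interferon-induced membrane protein, stood at 19.0, 14.9 and 18.5 FPKM in the si-circ_0000839 libraries, against 13.1, 13.6 and 11.5 FPKM in the NC libraries. All si-circ_0000839 libraries lay above the NC libraries, with a log2 change of 0.43 (SE 0.10) and an adjusted p of 0.114 in limma, and 4 of 18 alternatives called it. ICAM1, an adhesion molecule that binds LFA-1 on T cells, averaged 19.1 ± 1.18 FPKM in si-circ_0000839 cells and 16.2 ± 1.18 FPKM in NC cells (SD, n = 3 each; log2 change 0.23, adjusted p 0.268).

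Of 9 tested turnover and ubiquitin ligase genes, 1 was called higher and 0 lower, against the 0.131% of all tested genes called higher. This was MARCHF4, a membrane ubiquitin ligase that can lower class I at the cell surface. MARCHF4 stood at 15.5, 14.3 and 16.0 FPKM in the si-circ_0000839 libraries, against 10.4, 10.4 and 11.0 FPKM in the NC libraries. It rose 1.44-fold, with a log2 change of 0.49 (SE 0.07) and an adjusted p of 0.0163 in limma. The call was lost without si-circ_0000839 replicate 1 (adjusted p 0.0611), si-circ_0000839 replicate 3 (0.0903), NC replicate 1 (0.0656) or NC replicate 3 (0.0540). It was also lost with no filter on low values (0.152) and without both libraries that stood apart (0.0668), while the log2 change stayed at 0.45 to 0.54 over all 18 alternatives.

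The class II list, of the neighbouring pathway for extracellular peptides, had 1 tested gene of 8. CD74, the invariant chain, stood at 7.78, 6.42 and 7.46 FPKM in the si-circ_0000839 libraries, against 4.29, 5.56 and 4.19 FPKM in the NC libraries. The groups did not overlap, with a 1.54-fold ratio of means, a log2 change of 0.54 (SE 0.11) and an adjusted p of 0.0743 in limma, which 6 of 18 alternatives took under 0.05. The HLA class II genes lay below 1 FPKM, and HLA-DRA was above 0 only in si-circ_0000839 replicate 2 (0.0397 FPKM) and NC replicate 2 (0.0430 FPKM). Of 12 class I pseudogenes found 1 was tested and 6 were at 0 in all libraries. The tested one, HLA-H, which resembles the classical genes in sequence, stood at 6.72, 11.4 and 7.88 FPKM in the si-circ_0000839 libraries, against 11.0, 10.2 and 8.58 FPKM in the NC libraries, with a log2 change of -0.20 and an adjusted p of 0.643.

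HLA-C had the widest range of the 9 genes over the 6 libraries, 0.69 on the log2(FPKM + 1) scale, and the genes with the most similar deviations were OSCAR, GRN, DTX3, MMP2 and FP565260.1, with a root mean square difference of 0.0643 to 0.0807. Each was highest in si-circ_0000839 replicate 1, like HLA-C. They were picked by the deviations of HLA-C, so this and their higher si-circ_0000839 means go with that choice. Their longest transcripts had 56.5% (MMP2) to 62.6% (OSCAR) GC. GRN averaged 192 ± 29.2 FPKM in si-circ_0000839 cells and 160.4 ± 0.868 FPKM in NC cells (SD, n = 3 each). OSCAR averaged 27.5 ± 4.04 FPKM in si-circ_0000839 cells and 22.2 ± 0.369 FPKM in NC cells (SD, n = 3 each). Of the other 8 class I genes, HLA-B was nearest to HLA-C, at rank 220 of 10673 with a root mean square difference of 0.139, and TAP2 farthest, at rank 3690.

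Leukocytes and endothelium carry much class I, so their markers were read beside it. Of 10 leukocyte markers PTPRC, CD3E, MS4A1 and TYROBP were at 0 in all libraries and 1 was tested, LCP1, which averaged 216 ± 9.32 FPKM in si-circ_0000839 cells and 210.4 ± 3.01 FPKM in NC cells (SD, n = 3 each). The summed leukocyte level was 207 to 224 FPKM in the si-circ_0000839 libraries, against 208 to 214 FPKM in the NC libraries, nearly all of it LCP1. The 7 fibroblast markers summed to 14.5 to 19.1 FPKM in the si-circ_0000839 libraries, against 20.1 to 25.2 FPKM in the NC libraries. Nearly all of this was LUM, the tested one, at 13.6 to 18.4 FPKM against 19.7 to 24.7 FPKM. LUM had an adjusted p of 0.108 in limma and was called lower by voom. COL1A1 (mean 0.565 against 0.370 FPKM) and PDGFRB (0.197 against 0.136 FPKM) were higher in si-circ_0000839 cells, and the remaining fibroblast markers lay near 0. The 6 endothelial markers summed to 3.33 to 4.19 FPKM in the si-circ_0000839 libraries, against 2.66 to 3.01 FPKM in the NC libraries. Nearly all of this was ROBO4, the tested one, at 3.29 to 4.03 FPKM against 2.52 to 2.85 FPKM, with an adjusted p of 0.147 in limma. No other endothelial marker passed 0.113 FPKM in any library (PECAM1 in NC replicate 2), so the sum describes 1 gene. Of the 10 thyroid epithelial markers, NKX2-1 and TSHR were at 0 in all libraries. TG (mean 0.129 FPKM in si-circ_0000839 cells and 0.143 FPKM in NC cells) and KRT19 (0.0523 and 0.0378 FPKM) lay near 0. The 5 tested markers had 0 calls in limma and in voom and 0 at an unadjusted p under 0.05. PAX8 averaged 96.3 ± 5.26 FPKM in si-circ_0000839 cells and 95.8 ± 2.21 FPKM in NC cells, and KRT18 101 ± 4.19 FPKM in si-circ_0000839 cells and 116 ± 15.3 FPKM in NC cells (SD, n = 3 each). KRT8 averaged 190.1 ± 11.7 FPKM in si-circ_0000839 cells and 208 ± 20.4 FPKM in NC cells (SD, n = 3 each). The other tested markers went the other way. KRT7 averaged 101 ± 7.02 FPKM in si-circ_0000839 cells and 95.1 ± 8.01 FPKM in NC cells, and FOXE1 11.6 ± 0.906 FPKM and 10.9 ± 0.597 FPKM (SD, n = 3 each). The part of these levels in the class I values was not tested.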

How the data were processed

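RNA-seq libraries of TPC1 cells, 3 with si-circ_0000839 and 3 with NC, were grouped and numbered by their titles. The authors deposited FPKM per gene with gene lengths and coordinates, per the file headers, and the submitters' processing notes list HISAT2 2.0.5 together with featureCounts 1.5.0-p3. Genome build, strand setting and treatment of shared reads were not given in the sources used here, but all 58735 genes matched the coordinates and exon-union lengths of GENCODE release 29 (GRCh38). For 27 genes a spreadsheet date stood in place of the symbol and was replaced through the gene ID. FPKM times length gave whole reads, within 0.01, for every value above 0. The total that scaled the FPKM was 0.958 times the recovered reads in NC replicate 2 and 0.971 times in si-circ_0000839 replicate 1. In the other libraries it was 1.00 to 1.02 times, so the FPKM were not scaled by the recovered reads alone.

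FPKM are not counts, so log2(FPKM + 1) of genes averaging 1 FPKM or more was tested with limma 3.58.1 in R 4.3.3 (trended prior variance, group as the only term, two-sided), with Benjamini-Hochberg adjustment over all 10674 tested genes and a threshold of 0.05. This scale understates changes of low genes; folds are ratios of mean FPKM. The planned negative-binomial tests were not run, because the deposited values are FPKM, and voom was the only test on the recovered reads. Ratios were compared by exact permutation over the 6 libraries. The script was tested on simulated data. The 9 genes and the lists were chosen with earlier results of these data known. Named genes are the 9 genes and the called genes of each list or else its 2 smallest p. The 5 genes most like HLA-C and genes that overlap the 9 are also named. HLA-E, HLA-DRA, PAX8, FOXE1, KRT7, COL1A1, PDGFRB, PECAM1, the markers at 0 and the ratio to B2M were chosen after their values were seen. So were TG, KRT19, GBP2, CD274, CXCL9, CXCL10, CXCL11, XAF1 and IDO1. Alternatives covered pseudocount, filter, scaling, replicate block, voom, gene class, GC and length trend and left-out libraries. For 1 marker gene of these lists, the values are not reported here.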

Additional observations from a re-analysis of the deposited data

How the results depend on the processing

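The count of tested genes called by limma was 41 (14 higher, 27 lower). It was 4 with no filter on low values, 68 at a mean of at least 5 FPKM, 63 (29 higher, 34 lower) after quantile normalization, 55 (32 higher, 23 lower) as TPM, 118 with voom, 125 in protein-coding genes alone, 220 (111 higher, 109 lower) with the GC and length trend removed, 20 with si-circ_0000839 replicate 1 and NC replicate 2 left out together, and 20 to 37 with 1 library left out. It stayed within 1.5 times of 41 under the other pseudocounts and median-ratio scaling. Of the 9 class I genes 0 were called, and 1, HLA-B, under 6 alternatives: at least 5 FPKM (adjusted p 0.0475), quantile normalization (0.0447), TPM (0.0408), voom (0.0197), protein-coding genes alone (0.0288) and the GC and length trend removed (0.0173). With 1 library left out, 0 to 0 were called and the adjusted p of HLA-B was 0.0863 to 0.343. Direction held under all alternatives for HLA-B, HLA-C, B2M, TAP1, TAP2, TAPBP and PSMB8. PSMB9, at -0.01, turned to 0.016 as TPM, 0.050 without si-circ_0000839 replicate 2, 0.057 without NC replicate 2 and 0.022 without both libraries that stood apart, and ran from -0.060 to 0.057 with 1 library left out. NLRC5, at 0.06, turned to -0.021 with the GC and length trend removed and -0.024 without si-circ_0000839 replicate 1. It ran from -0.024 to 0.10 with 1 library left out, was 0.004 without both libraries that stood apart, and was not tested at a minimum of 5 FPKM. The causes were not tested. With 1 library left out, the log2 ratio differences were 0.11 to 0.17 for PSMB8 to PSMB5, -0.02 to 0.08 for PSMB9 to PSMB6, 0.12 to 0.25 for PSMB10 to PSMB7, 0.20 to 0.31 for TAP1 to PSMB9 and -0.01 to 0.16 for TAP1 to TAP2, in a design that cannot pass the threshold. Without both libraries that stood apart the log2 ratio differences were 0.096 for PSMB8 to PSMB5, -0.045 for PSMB9 to PSMB6 and 0.093 for PSMB10 to PSMB7. They were then 0.28 for TAP1 to PSMB9 and 0.097 for TAP1 to TAP2. The correlations of deviations between same-numbered libraries of the 2 groups were -0.15, -0.29 and 0.15. The largest of any pair was 0.35, between si-circ_0000839 replicate 1 and NC replicate 2, the libraries that stood apart. The labels do not say whether the numbers mark shared batches, and these correlations cannot decide it. With the replicate block 35 genes were called, 25 of them among the 41, with 0 class I genes and an adjusted p of 0.203 for HLA-B. The planned negative-binomial tests were not run. At 3 libraries a group, the 95% interval of TAP1, for example, spanned 0.05 to 0.43 on the log2 scale.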
